A study of Mus musculus with 4 samples.

Results

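The DNA replication machinery is described here through 37 genes, chosen as a fixed list of replication proteins and of enzymes that supply or repair the DNA they copy. A gene counted as measured when at least 1 of its probes was well above background on at least 1 array. All 37 genes were measured, of 20628 measured genes in the whole data set. They were read by 67 measured probes, with 1 to 5 measured probes per gene.

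The cells were bone marrow-derived macrophages of male C57BL/6J mice, grown from femoral marrow with M-CSF at 3 ng/ml and harvested on day 5. Batf2 encodes a leucine zipper transcription factor related to Batf, and R848 is a small-molecule agonist of the nucleic acid sensor Toll-like receptor 7 in mouse cells. There were 4 groups of 1 array each: Batf2-/- (KO) cells given R848 at 100 ng/ml for 8 h, untreated KO cells, WT cells given R848 in the same way, and untreated WT cells. The labels describe the untreated arrays as time 0, so hours in culture and R848 change together in the responses. The labels used here do not give the age of the mice or how many were used.

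Replication starts in G1, when the origin recognition complex, Cdc6 and Cdt1 load the MCM2-7 helicase onto DNA. In S phase Cdc45 and the GINS complex join the helicase, and the polymerases copy both strands on the sliding clamp PCNA. Macrophages grown in M-CSF divide while they differentiate, and the genes of this machinery are textbook targets of the E2F transcription factors, which act as cells enter S phase. In a bulk RNA sample, fewer dividing cells and less RNA per dividing cell cannot be told apart.

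Each value below is a relative signal, the array's processed signal for 1 probe divided by that array's 75th percentile over all probes. Signals of different probes are not set against each other. Each gene was read at its brightest measured probe. With 1 array per group there is no replicate error and no test, and a gene was called lower or higher at a difference of at least 2-fold. Within an array, the spread over 10 spots of 1 probe gave a pooled SD of 0.0674 to 0.0741 for the log2 difference between 2 arrays and 0.0993 for the difference between the responses. The scanner software's own error estimate for a member's log2 difference had a median of 0.20. Neither covers the variation between cultures.

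The 75th percentile of the signal lay between 252 and 278. Well above background were 64.9% of probes with R848 and 71.4% untreated in KO cells, and 60.6% with R848 and 69.6% untreated in WT cells, so detection was lower on both R848 arrays. The part of this in the lower signals after R848 was not tested; 35 of the 37 members were read by probes well above background on all 4 arrays. The Batf2 probe read 0.0428 with R848 (not well above background) and 0.102 untreated in KO cells, and 0.357 with R848 and 0.123 untreated in WT cells. With R848 it was at least 6.20-fold lower in KO than in WT cells, while untreated it was 1.21-fold lower; where this probe lies relative to the deletion is not stated in the labels. All 10 macrophage markers were well above background on every array, with summed relative signals of 810 and 744 in KO cells and 689 and 645 in WT cells (R848, then untreated). Such a sum follows its brightest probes. After R848, 6 of the 10 markers were lower and 4 higher in KO cells, and 7 were lower and 3 higher in WT cells. Their median log2 differences were -0.41 and -0.31.

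Most replication genes were lower after R848 in both genotypes. In KO cells 34 of 37 members were lower than untreated by any amount, against 55.5% of all genes measured, and the members' median log2 difference was -0.52 (all genes, -0.06). In WT cells 33 of 37 were lower, against 52.7% of all genes, and the median was -0.59 (all genes, -0.03). At least 2-fold lower were 5 members in KO cells, where 6.58% of all genes were, and 10 members in WT cells, where 7.01% were. The 5 in KO cells were Cdt1, Mcm7, Gins1, Prim1 and Rrm1, and all 5 were also among the 10 in WT cells, which further held Pole (as a bound), Rfc2, Lig1, Rrm2 and Tyms. Pole was well above background on the untreated arrays only, so it could only read as lower after R848 or have no value. With genes required well above background on all arrays, 9 of 35 members were at least 2-fold lower in WT cells (6.03% of all genes). By any amount, 33 of 35 were then lower in KO and 32 of 35 in WT cells. Pola2 alone was at least 2-fold higher in KO cells, where 6.84% of all genes were, and likewise in WT cells, where 6.19% were. With normexp background correction of the median signal (offset 50), only Cdt1, Mcm7 and Rrm1 in KO cells and Mcm7, Rrm1 and Rrm2 in WT cells stayed at least 2-fold lower. Of all genes, only 2.74% in KO and 3.04% in WT cells were then at least 2-fold lower. With median centring of the arrays, Cdt1, Rfc2, Lig1 and Tyms were under 2-fold in WT cells.

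**Figure D1:**
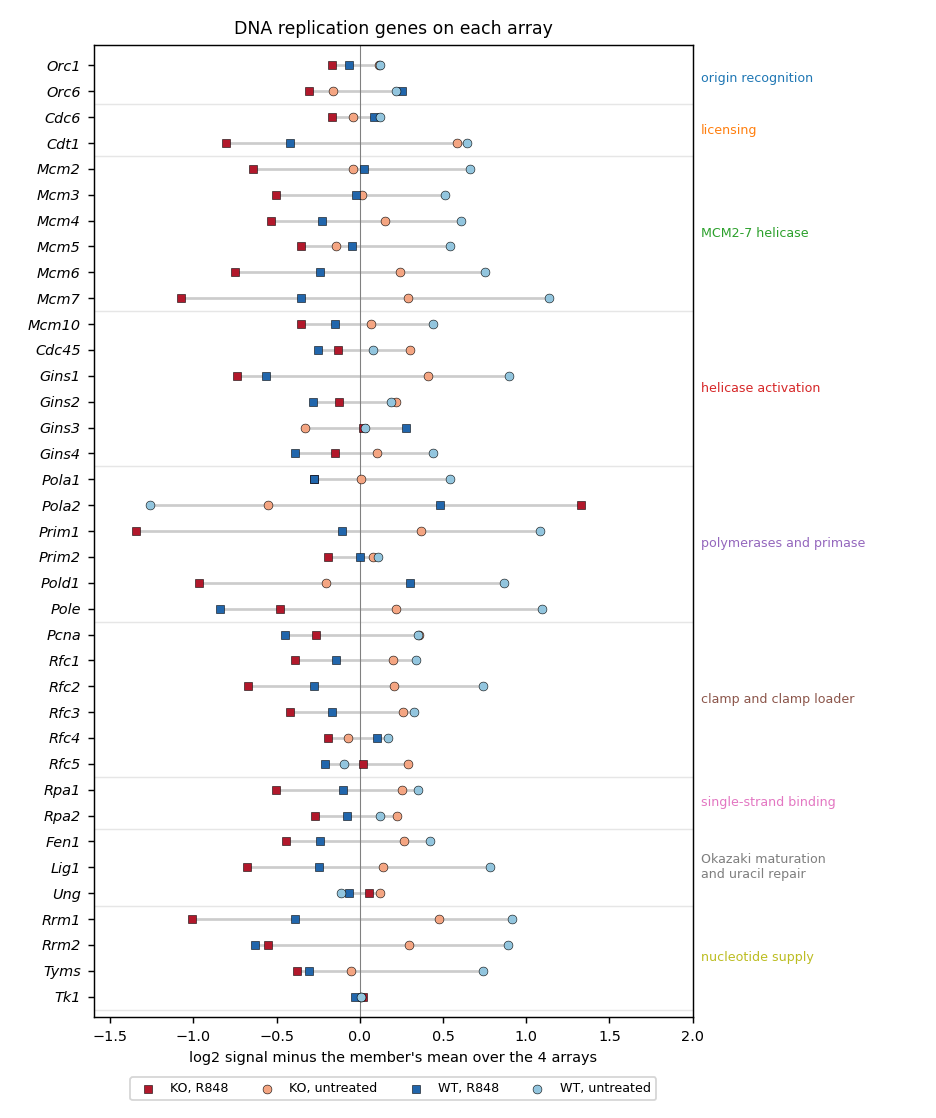
Log2 signal of each of the 37 members on the 4 arrays, minus the member's mean over the arrays (x axis, log2 units), grouped by role, with 1 point per array. Squares (R848) lie left of circles (untreated) for most members, and WT untreated is the rightmost point for all 6 subunits of the MCM2-7 helicase.

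The members of the origin recognition complex and of helicase loading behaved unevenly. Cdt1, the loading factor that geminin inhibits, read 0.917 with R848 and 2.41 untreated in KO cells, and 1.20 with R848 and 2.50 untreated in WT cells. Both R848 arrays lay below both untreated arrays, a 2.63-fold difference in KO and 2.09-fold in WT. Cdc6, the ATPase that loads the helicase beside Cdt1, read 1.30 and 1.42 in KO cells and 1.54 and 1.59 in WT cells (R848, then untreated), 1.09-fold and 1.03-fold lower with R848. A dimmer Cdc6 probe, also annotated to its RefSeq mRNA, gave log2 bounds of -1.34 in KO and -1.14 in WT cells. It was well above background on the untreated arrays only, so it could only read as lower or have no value. Orc6, a subunit of the origin recognition complex, read 1.32 and 1.46 in KO cells and 1.94 and 1.90 in WT cells, so the arrays divided by genotype and not by treatment.

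All 6 subunits of the MCM2-7 helicase, the ring that unwinds DNA at the fork, were lower after R848 in both genotypes and lower in KO than in WT cells at both times. Mcm7 differed most: it read 3.83 with R848 and 9.85 untreated in KO cells, and 6.29 with R848 and 17.7 untreated in WT cells. It was 2.57-fold lower with R848 in KO and 2.81-fold lower in WT. A dimmer RefSeq mRNA probe of Mcm7 gave log2 differences of -2.11 in KO and -1.60 in WT. Mcm6 read 10.3 and 20.5 in KO cells and 14.7 and 29.2 in WT cells, a 1.99-fold difference in each genotype. Its dimmer RefSeq mRNA probe gave log2 differences of -1.11 in KO and -1.08 in WT, past 2-fold in each. In Mcm4 the values were 5.12 and 8.24 in KO and 6.34 and 11.3 in WT, 1.61-fold and 1.78-fold lower with R848. Mcm2 and Mcm3 were 1.52-fold and 1.43-fold lower in KO, and 1.55-fold and 1.45-fold lower in WT. Mcm5 read 1.67 with R848 and 1.93 untreated in KO cells, and 2.06 with R848 and 3.10 untreated in WT cells, so only the untreated WT array stood well apart. At the probes used, the difference between the responses stayed between 0.00 and 0.38 (log2) for the 6 subunits.

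Short promoter sequences show what several of these genes share. RefSeq promoters (build GRCm38.p6, 250 bases before to 50 after each start site) were given for 30 of the 37 members, as 34 promoters. Both strands were searched for 4 forms of the E2F site (TTTCCCGC, TTTGGCGC, TTTCGCGC and TTTGCCGC). At least 1 form was found in 12 of the 34 member promoters (35.3%), and in 2.26% of the 32851 promoters in the table. The CCAAT box, which factor NF-Y binds, was in 58.8% of member promoters and 37.4% of all. TTTGAA, the core of the cell cycle homology region, was in 11.8% and 17.9%. E2F forms can overlap each other, and a match is a description of letters, not evidence of binding. The stretches around the first match in the 4 MCM2-7 genes that had one, and in Cdt1, are printed because these genes were lower after R848 on both pairs of arrays; capitals mark every E2F form, on either strand, in the printed stretch.
Mcm3, chr1:20820263-20820319, minus strand: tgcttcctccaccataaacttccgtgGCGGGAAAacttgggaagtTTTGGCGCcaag
Mcm5, chr8:75109330-75109389, plus strand: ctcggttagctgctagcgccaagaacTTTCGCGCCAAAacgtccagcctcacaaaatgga
Mcm6, chr1:128359782-128359841, minus strand: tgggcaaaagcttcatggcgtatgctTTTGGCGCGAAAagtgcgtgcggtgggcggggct
Mcm7, chr5:138172015-138172074, minus strand: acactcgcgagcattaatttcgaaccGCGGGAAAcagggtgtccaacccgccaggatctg
Cdt1, chr8:122568021-122568064, plus strand: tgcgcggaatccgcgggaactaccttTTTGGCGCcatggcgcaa

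In Mcm5 and Mcm6 the forms overlap, so that 1 run of capitals holds a match on each strand. The other members with an E2F form were Orc1, Cdc6, Gins3, Pola1, Pold1, Rfc3 and Lig1. E2F forms occurred both in members at least 2-fold lower in WT cells and in the other members. An E2F form was present in 3 of the 10 promoters of the first, and in 9 of the 24 promoters of the others. Some genes have several promoters. Counted by gene, these were 3 of 7 (42.9%) and 9 of 23 (39.1%), the reverse order. No promoter was given for Gins1, Pole and Rfc2, which were at least 2-fold lower in WT cells. Gins3, which was not lower after R848 in either genotype, has one at 41 bases before its start site.

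The factors that turn the loaded ring into an active helicase differed among themselves. Gins1, a subunit of the GINS complex, read 0.170 with R848 and 0.375 untreated in KO cells, and 0.191 with R848 and 0.527 untreated in WT cells, 2.21-fold and 2.76-fold lower with R848. Gins3, another subunit of the same complex, read 8.41 and 6.62 in KO cells and 10.1 and 8.48 in WT cells. It was 1.27-fold and 1.19-fold higher with R848. Gins4 was 1.19-fold lower with R848 in KO cells and 1.78-fold lower in WT cells, and Gins2 was 1.27-fold and 1.38-fold lower. The dimmer RefSeq mRNA probe of Gins4 gave log2 differences of -0.66 in KO and -1.16 in WT, the second past 2-fold. Mcm10, which binds the activated helicase, was 1.34-fold and 1.50-fold lower. Cdc45, the cofactor that completes the active helicase, had 2 RefSeq mRNA probes that differed in size. The brighter was 1.35-fold lower in KO and 1.26-fold lower in WT, and the other gave log2 differences of -1.23 and -1.18.

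Primase starts each new DNA strand with a short RNA, and polymerase alpha extends it. Prim1, the catalytic primase subunit, read 0.106 with R848 and 0.348 untreated in KO cells, and 0.251 with R848 and 0.572 untreated in WT cells. It was 3.27-fold lower with R848 in KO and 2.28-fold lower in WT. With normexp background correction it was under 2-fold in both. Pola1, the catalytic subunit of polymerase alpha, read 0.324 on both R848 arrays, against 0.394 untreated in KO cells and 0.572 untreated in WT cells. Its dimmer RefSeq mRNA probe gave log2 differences after R848 of -1.41 in KO and -1.60 in WT, and was lower in KO than in WT with R848, by -0.46. Pold1, the catalytic subunit of the lagging-strand polymerase delta, was 1.70-fold lower in KO and 1.48-fold lower in WT. Pole, the catalytic subunit of the leading-strand polymerase epsilon, was well above background on the untreated arrays only (0.0868 in KO and 0.159 in WT). After R848 it was at least 1.51-fold lower in KO and at least 2.27-fold lower in WT. A probe detected in this way can only read as lower or have no value, so its direction is not evidence of a decrease.

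Pola2, the accessory subunit of polymerase alpha, was at least 2-fold higher after R848 at the probe used. Its brightest probe, annotated to a cDNA clone, read 0.246 with R848 and 0.0668 untreated in KO cells, and 0.136 with R848 and 0.0408 untreated in WT cells, where the last value was not well above background. That is 3.68-fold higher in KO and at least 3.14-fold higher in WT. The probe annotated to the RefSeq mRNA of Pola2 was dim and gave only log2 bounds, of 0.96 in KO and -0.21 in WT. It was not well above background untreated in KO cells (0.0342) or with R848 in WT cells (0.0779). The other cDNA clone probes were higher with R848 in both genotypes. One gave bounds of 2.07 in KO and 1.62 in WT, and the other a bound of 0.67 in KO and a difference of 0.16 in WT. The first was well above background on the R848 arrays only. Each of these bounds could only favour the array well above background or have no value, so its direction is not separate evidence. The direction in WT cells therefore turned with the probe, at signals near the background.

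The clamp, its loader and the enzymes that finish the lagging strand were lower after R848 by at most 2.03-fold at the probes used, apart from Ung. Pcna, the sliding clamp, read 62.6 with R848 and 96.1 untreated in KO cells, and 54.9 with R848 and 95.7 untreated in WT cells, 1.54-fold and 1.74-fold lower. Of the 5 clamp loader subunits, Rfc2 differed most, at 4.04 and 7.41 in KO cells and 5.30 and 10.7 in WT cells, 1.84-fold and 2.03-fold lower. Rfc1 and Rfc3 were 1.51-fold and 1.60-fold lower in KO, and 1.39-fold and 1.41-fold lower in WT. Rfc4 and Rfc5 differed by at most 1.20-fold in either genotype at the probe used. Another RefSeq mRNA probe of Rfc4 gave log2 differences of -0.70 in KO and -0.50 in WT, and its cDNA clone probe 0.02 and -0.34. Lig1, which seals the fragments of the lagging strand, read 7.19 and 12.7 in KO cells and 9.70 and 19.7 in WT cells, 1.76-fold and 2.03-fold lower. A dimmer RefSeq mRNA probe of Lig1 gave larger log2 differences, of -1.59 in KO and -1.50 in WT. Fen1, the nuclease that trims their flaps, was 1.63-fold and 1.58-fold lower. Rpa1 and Rpa2, which coat single-stranded DNA, were 1.69-fold and 1.41-fold lower in KO, and 1.37-fold and 1.15-fold lower in WT.

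Ung, the uracil-DNA glycosylase that removes uracil from new DNA, stood outside this pattern at the probe used. Its probe read 664.6 with R848 and 696.5 untreated in KO cells, and 610.3 with R848 and 592 untreated in WT cells. No pair of arrays differed by more than 1.18-fold. Ung was read by this 1 probe alone, and only 26 of 56605 probes had a higher mean signal. Whether so high a signal comes from Ung mRNA alone, or can still follow a change in it, was not tested.

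Among the enzymes of nucleotide supply, both subunits of ribonucleotide reductase, which makes the deoxynucleotides, were lower after R848. Rrm1, the large subunit, read 1.06 with R848 and 2.98 untreated in KO cells, and 1.63 with R848 and 4.03 untreated in WT cells, 2.80-fold and 2.47-fold lower. Rrm2, the small subunit, read 1.41 and 2.54 in KO cells and 1.34 and 3.84 in WT cells, 1.80-fold and 2.87-fold lower. Tyms, thymidylate synthase, read 1.69 and 2.11 in KO cells and 1.77 and 3.65 in WT cells, 1.25-fold and 2.06-fold lower. In Rrm2 and Tyms the R848 arrays of both genotypes were close, and the untreated arrays were apart.

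**Figure D2:**
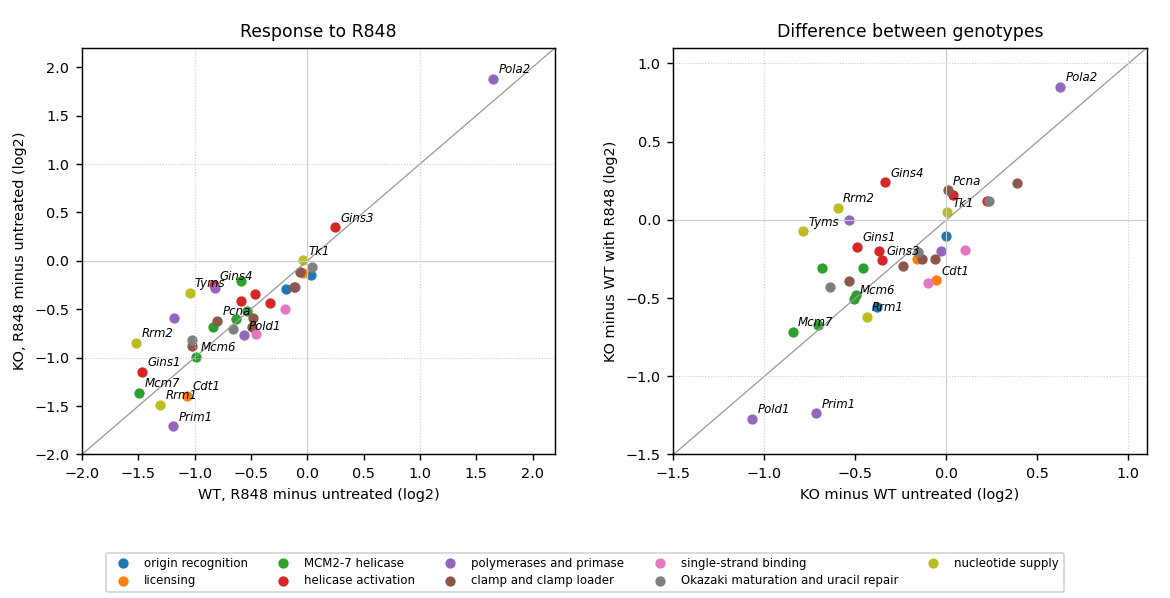
Left, each member's log2 difference of R848 minus untreated in KO (y axis) against WT (x axis). Right, KO minus WT with R848 (y axis) against untreated (x axis). Points are members, coloured by role, the diagonal marks equal values and dotted lines mark 2-fold. Most points lie below 0 on both axes of each panel. A member's height above the diagonal is the same number in both panels, its KO response minus its WT response. That number is above 0 in 20 of 37 members, among them Rrm2, Tyms and Gins4.

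Which transcript a probe is annotated to mattered for several members. Thymidine kinase, Tk1, showed it most clearly. Its brightest probe, annotated to an Ensembl transcript, read 1.35 and 1.34 in KO cells and 1.31 and 1.34 in WT cells (R848, then untreated). Of its 2 RefSeq mRNA probes, one read 0.441 and 0.970 in KO cells and 0.387 and 1.35 in WT cells. The other read 0.232 and 0.759 in KO cells and 0.385 and 1.65 in WT cells. Their log2 differences after R848 were -1.14 and -1.71 in KO cells and -1.80 and -2.10 in WT cells.

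Orc1, the ATPase subunit of the origin recognition complex, and Prim2, the regulatory primase subunit, were also read by a brightest probe on an Ensembl transcript, with differences after R848 of at most 1.22-fold. The RefSeq mRNA probe of Prim2 gave log2 differences of -0.73 in KO and -1.15 in WT. The 2 of Orc1 gave 0.05 and -0.47 in KO, and a bound of -1.29 and a difference of -1.45 in WT, in the same order. Rfc5 was read at a cDNA clone probe, and its RefSeq mRNA probe gave -0.92 in KO and -0.51 in WT.

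Over all members' measured probes, the 52 annotated to RefSeq mRNAs had a median log2 difference after R848 of -0.62 in KO and -0.83 in WT, and 49 of 52 were below 0 in each. The 8 annotated to Ensembl transcripts had medians of 0.01 in KO and 0.00 in WT, with none past 2-fold in either direction. The 7 annotated to cDNA clones had medians of 0.02 and -0.11. With genes read only at RefSeq mRNA probes, the brightest of each, a choice made after these values were seen, 6 members in KO (7.39% of all genes read so) and 13 in WT (8.27%) were at least 2-fold lower. The members' medians were then -0.60 and -0.80. Among the 19 members with more than 1 measured probe, the probes shared 1 direction in 14 members in the KO response and in 15 in the WT response.

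**Figure D3:**
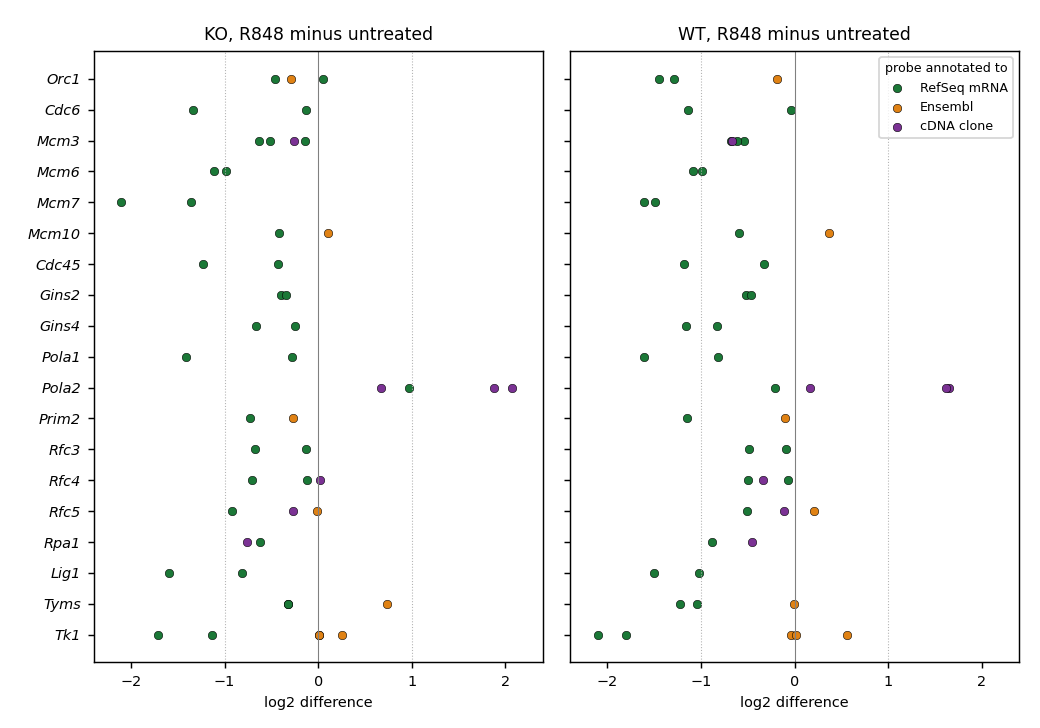
Log2 difference of R848 minus untreated in KO (left) and WT (right) for every measured probe of the 19 members with several, coloured by the kind of transcript the probe is annotated to. RefSeq mRNA probes lie mostly below 0, and Ensembl probes lie between -0.29 and 0.73.

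Between the genotypes, replication genes were mostly lower in KO than in WT cells, on the same 4 arrays as the responses. Untreated, 29 of 37 members were lower in KO, against 43.2% of all genes measured, with a median log2 difference of -0.36 (all genes, 0.06). With R848, 26 of 36 were lower, against 45.1% of all genes, with a median of -0.25 (all genes, 0.04). Of the 36 members with a value at both times, 25 were lower in KO at both and 7 were higher at both. Few passed 2-fold: 1 member untreated, where 3.18% of all genes were at least 2-fold lower, and 2 with R848, where 2.45% were. None was at least 2-fold higher in KO, where 2.8% of all genes were untreated and 2.34% with R848.

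The member at least 2-fold lower in KO cells at both times was Pold1. It read 0.448 with R848 and 0.764 untreated in KO cells, and 1.08 with R848 and 1.60 untreated in WT cells, so both KO arrays lay below both WT arrays. It was 2.41-fold lower in KO with R848 and 2.10-fold lower untreated. Prim1 was 2.36-fold lower in KO with R848 and 1.64-fold lower untreated. Mcm7 was 1.64-fold lower in KO with R848 and 1.80-fold lower untreated, and its dimmer probe gave log2 differences of -1.35 with R848 and -0.85 untreated, the first past 2-fold. Pcna was 1.14-fold higher in KO with R848, and untreated it read 96.1 in KO and 95.7 in WT cells. Rfc5 was 1.18-fold and 1.31-fold higher in KO at the probe used. Gins4 read 2.74 with R848 and 3.26 untreated in KO cells, and 2.32 with R848 and 4.12 untreated in WT cells, so KO was the higher with R848 and the lower untreated. With normexp background correction no member was 2-fold lower in KO: Pold1 was at -0.97 with R848 and -0.90 untreated (log2), and Prim1 at -0.51 with R848. Of all genes, 1.08% untreated and 0.783% with R848 were then at least 2-fold lower in KO.

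The direction between genotypes turned with the probe in several members. Untreated, the probes shared 1 direction in 14 of 19 members with several, and with R848 in 8 of 18. Cdc45 and Tk1 were among the 7 members higher in KO at both times at the probe used. The other Cdc45 probe gave KO minus WT log2 differences of -0.86 untreated and -0.91 with R848. The RefSeq mRNA probes of Tk1 gave -0.47 and -1.12 untreated, and 0.19 and -0.73 with R848. In Mcm3 the size of the difference depended on the probe. Of its 4 measured probes, a RefSeq mRNA probe and a cDNA clone probe gave KO minus WT log2 differences of -1.03 and -1.14 with R848, and -1.50 and -1.55 untreated. The other 2, both on its RefSeq mRNA and including the probe used, gave -0.59 and -0.48 with R848, and -0.64 and -0.50 untreated. All 4 were lower in KO at both times. Read at RefSeq mRNA probes, 3 members untreated (3.62% of all genes read so) and 2 with R848 (2.66%) were at least 2-fold lower in KO. The 3 untreated were Pold1, Orc1 and Pola2, at log2 differences of -1.07, -1.44 and -1.03, the last a bound near background. The other RefSeq mRNA probe of Orc1 gave only -0.28.

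Markers of several other cell types differed between genotypes and after R848. Granulocyte precursor markers summed to relative signals of 300.5 with R848 and 325 untreated in KO cells, and 469 and 605 in WT cells, with 11 of 11 well above background on each array. Progenitor markers summed to 9.90 and 9.02 in KO cells and 24.8 and 32.4 in WT cells, with 7 of 7 well above background. Monocyte markers summed to 25.5 and 18.3 in KO cells and 81.2 and 69.1 in WT cells, with 4 of 5 well above background in KO with R848 and 5 of 5 on the other arrays. Basophil and mast cell markers summed to 3.20 and 2.92 in KO cells and 13.9 and 23.4 in WT cells, with 6 and 9 of 10 well above background in KO and 9 and 10 in WT. Fibroblast and stroma markers summed to 9.71 and 14.9 in KO cells and 8.76 and 14.7 in WT cells, so the genotypes were close. Lymphocyte markers summed to 6.02 and 6.32 in KO cells and 6.26 and 8.20 in WT cells. Erythroid markers summed to 1.35 and 1.12 in KO cells and 1.28 and 1.59 in WT cells. After R848, granulocyte precursor markers had median log2 differences of -0.77 in KO and -1.15 in WT, basophil and mast cell markers -0.72 and -0.64, progenitor markers -0.75 and -0.52, and monocyte markers 0.13 in both. The 5 monocyte markers spread widely, from -3.52 to 1.06 in KO (1 value a bound) and from -2.96 to 0.78 in WT. In each genotype 2 of them were below 0 and 3 above. In the granulocyte precursor, basophil and progenitor lists most markers were lower after R848, although the KO sums of progenitor and basophil markers were slightly higher. Singled out after their values were seen, Spi1 (progenitor list) was 1.54-fold higher with R848 in KO and Hdc (basophil list) 2.42-fold higher. The part of these cells in the lower replication transcripts of KO cells, or in those after R848, was not tested.

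**Figure D4:**
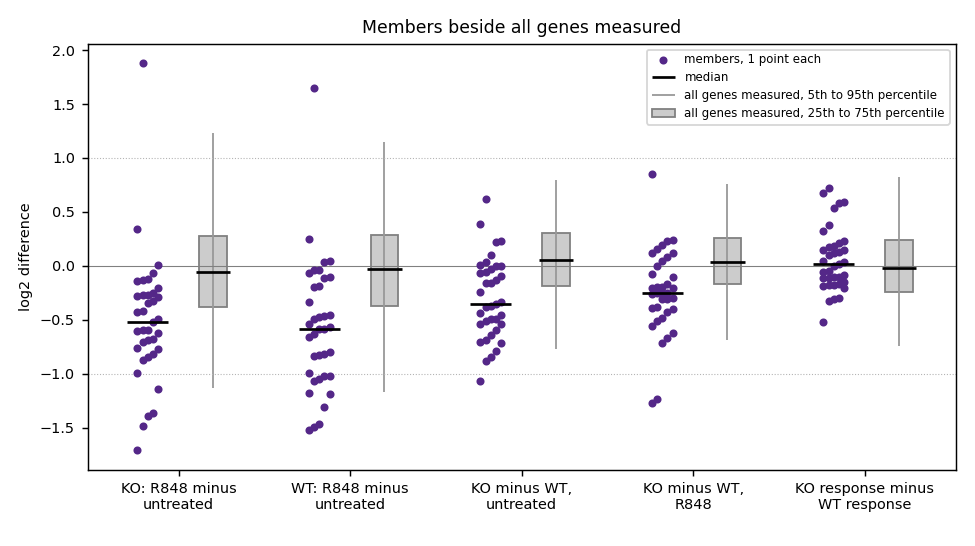
Log2 differences (y axis) of the members (points, with their median as a bar) beside all genes measured (box, 25th to 75th percentile with the median, and line, 5th to 95th percentile) in the 4 comparisons and in the difference between the responses. The members' medians are below those of all genes in the 4 comparisons, at -0.52, -0.59, -0.36 and -0.25, and near 0 in the difference between the responses.

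The responses of the 2 genotypes were close for most members. The KO response minus the WT response had a median of 0.02 (all genes, -0.02), with 17 of 37 members below 0 (2 of the 37 values, those of Pole and Pola2, rest on bounds), against 51.8% of all genes. No member passed 2-fold in either direction, where 2.5% of all genes were at least 2-fold lower and 3.14% higher. The largest positive differences were in Tyms, at 0.72, and Rrm2, at 0.67, whose decrease after R848 was smaller in KO. Gins4, at 0.58, and Pola1, at 0.54, followed. For Pole both responses are bounds, so its difference between them has no known sign or size. The largest negative difference was in Prim1, at -0.52, whose decrease was larger in KO. Among the 19 members with several measured probes, the probes shared 1 direction in 10 for this difference. These values share the 4 arrays with the comparisons above and are not separate evidence.

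Other replication genes, listed apart from the members, gave a mixed picture. Of 50 further genes of replication and nucleotide supply, 8 were at least 2-fold lower and 3 higher after R848 in KO cells, and 12 of 48 lower and 2 higher in WT cells, with medians of -0.14 and -0.25. Of all genes measured, 6.58% were lower and 6.84% higher in KO cells, and 7.01% and 6.19% in WT cells. The higher counts in this list did not exceed those shares. Clspn (claspin), which relays the replication checkpoint, was 3.75-fold lower in KO and 4.73-fold lower in WT. Gmnn, geminin, the inhibitor of Cdt1, was 2.66-fold lower in KO and 3.55-fold lower in WT. Dck, a kinase that salvages deoxynucleosides, was 6.15-fold higher in KO and 2.77-fold higher in WT. Dut, the dUTPase that keeps uracil out of DNA, read 2.84 and 3.23 in KO cells and 3.04 and 5.90 in WT cells, and its KO response minus its WT response was 0.77, beside 0.72 for Tyms. Between genotypes with R848, Chtf18, a subunit of an alternative clamp loader, and Pole2, a subunit of polymerase epsilon, were 2.43-fold and 2.22-fold lower in KO.

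Genes of the G1 to S transition were lower after R848 with a median of -0.43 in KO and -0.56 in WT: 8 of 28 were at least 2-fold lower and 3 higher in KO, and 7 lower and 1 higher in WT. The shares of all genes were 6.58% lower and 6.84% higher in KO, and 7.01% and 6.19% in WT. E2f2, an activating E2F factor, read 0.734 with R848 and 3.26 untreated in KO cells, and 0.725 with R848 and 4.33 untreated in WT cells, 4.44-fold and 5.97-fold lower. E2f1, another activating factor, was 1.42-fold and 1.32-fold lower. Cdkn1a, the cyclin-dependent kinase inhibitor p21, was 2.05-fold higher in KO and 1.74-fold higher in WT at its brightest probe, and its probes did not all go the same way. Myc was 1.45-fold and 1.70-fold higher.

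Mitotic genes were lower too: 13 of 22 were at least 2-fold lower in KO and 7 of 22 in WT, with none higher and medians of -1.15 and -0.91. For this and the next 2 lists, the shares of all genes were 6.58% lower and 6.84% higher in KO, and 7.01% and 6.19% in WT. Mki67, the proliferation antigen Ki-67, was 2.08-fold and 1.84-fold lower. Of 25 genes of DNA repair, 3 were at least 2-fold lower in KO and 7 in WT, with none higher, and Brca1, which acts in homologous recombination, was 5.21-fold and 6.64-fold lower. Of 14 genes of deoxynucleotide breakdown and the checkpoint, 2 were lower in each genotype, and 2 were higher in KO and 1 in WT. Samhd1, which breaks down deoxynucleotides, was 1.48-fold higher in KO and 1.35-fold higher in WT at its brightest probe, and in WT its 5 probes did not all go the same way.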

How the data were processed

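Total RNA of 4 samples was labelled with Cy3 and hybridised to Agilent 1-colour arrays, all on 1 slide read in 1 scan. The submitters' processing notes name Agilent Feature Extraction 11.5.1.1 for reading the spots. The deposited processed signal is, per the file headers, an intensity on a linear scale after background and spatial correction, not normalized between arrays. A second, deposited table of intensity was the same signal multiplied by a constant for each array (to within 1% in its 39374 spots), and how the authors set these constants is unknown. Log2 ratios that the authors deposited with it were not used.

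Here log2 of the processed signal minus each array's 75th percentile over 56605 non-control probes was used. Spots flagged by the software as non-uniform or outliers (70 to 115 per array) were left out and none was saturated. Spots of 1 probe were averaged, and a probe was well above background where at least 0.5 of its spots were marked so. A difference against an array not well above background was set to the lowest signal well above background there, or the probe's own where higher, and is given as "at least". Probes were named from the authors' table and the RefSeq gene table of GRCm38.p6 (40458 of 56605), Pole by transcript accession only. The steps were tested on simulated data in Python 3.11.15. Quantile normalization was also done in Python, and limma 3.58.1 in R 4.3.3 was used for normexp.

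The members, gene lists, markers and motifs were chosen with earlier results of these data known. All members may be named; other genes were named as the up to 3 largest differences per list and comparison among those with agreeing probes, plus Cdkn1a, Myc, E2f1, Mki67, Samhd1 and Dut. Alternatives were the background correction, scaling, the source table, the rule for probes, filters and array position.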

Additional observations from a re-analysis of the deposited data

Results flagged for a closer look

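Gins4, a subunit of the GINS complex, was lower in KO than in WT cells untreated (log2 difference -0.34) and higher with R848 (0.24), at the brighter of its 2 RefSeq mRNA probes. It read 2.74 with R848 and 3.26 untreated in KO cells, and 2.32 with R848 and 4.12 untreated in WT cells. The opposite directions drew attention to it; with 1 array per group the difference was not tested. The dimmer probe was lower in KO at both times, by log2 differences of -0.60 untreated and -0.10 with R848.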

How the results depend on the processing

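Values with no replicates were recomputed under 10 alternatives; normexp on the mean signal was not run, because that column is not in the files used here, and the median signal was taken instead, a choice made after seeing the files, as was reading RefSeq mRNA probes. Normexp (offset 50) left 3 members at least 2-fold lower in KO and 3 in WT after R848, 0 between genotypes at either time, and 0 higher in KO or WT, with medians of -0.37 (KO), -0.45 (WT) and -0.25 (genotypes untreated). Of all genes it left 2.74% lower in KO and 3.04% in WT after R848, and 4.06% and 3.71% higher. Between genotypes it left 1.08% of all genes lower untreated and 0.783% with R848. Median centring shifted the median of all genes by 0.14 in the KO and 0.16 in the WT response and raised the share of 2-fold calls that were higher to 63.1% and 61.0%, against 51.0% and 46.9%. It left 6 members lower in WT, where 5.23% of all genes were (Cdt1, Rfc2, Lig1 and Tyms dropped below 2-fold). Members' medians were -0.38 and -0.43, which are -0.46 and -0.56 relative to all genes, as in the main values. Quantile normalization gave a KO median of -0.44. The mean over probes gave medians of -0.59 (KO), -0.67 (WT) and -0.43 (genotypes untreated). It gave 2 members lower in KO untreated (3.00% of all genes) and 0 higher in the WT response (5.94%). RefSeq mRNA probes gave medians of -0.60, -0.80 and -0.44 and 0.12 for the difference between responses. They gave 3 members lower in KO untreated (3.62% of all genes), Pold1, Orc1 and, as a bound, Pola2. In either response 0 were higher (7.47% of all genes in KO and 6.77% in WT). In the difference between responses 1 member was higher (3.30% of all genes), Pola2, where both responses are bounds. Pola2 turned to a bound of -0.21 in WT. Requiring all arrays above background left 0 higher in KO (6.22% of all genes) and 0 in WT (5.61%), because Pola2 was dim on 1 array. No filter gave 1 higher in the difference between responses (6.89% of all genes). Members' medians in both responses and both genotype comparisons stayed below 0 under all 10 alternatives. The 3 members left lower by normexp were Cdt1, Mcm7 and Rrm1 in KO and Mcm7, Rrm1 and Rrm2 in WT. Pole, known only as a bound, was at -0.93 in WT with quantile normalization. Otherwise the causes of these changes were not tested. No paired analysis was possible because each group has 1 array.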
